A study of Mus musculus with 2 samples.

Results

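The genes described here are 37 genes of the smooth muscle contractile apparatus and its regulators, of 43346 mouse genes in the deposited tables. They were chosen by name, as cytoskeletal, dense plaque and contraction-control genes other than the actins and myosins, and all 37 were found once in both libraries. The libraries are total RNA-seq of whole urinary bladder from 2 newborn mice of the inbred strain B6NCrl, taken on postnatal day 0. Both pups came from 1 pregnant female, 1 library was made per pup, and the labels say that sex was not collected. No treatment or genetic change is named, so both pups form 1 group, newborn bladder (n = 2), and the data allow a description of levels and of the spread between the pups but no comparison of conditions.

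In smooth muscle, a rise in calcium activates myosin light chain kinase, which switches myosin on, and a phosphatase switches it off. The small GTPase Rhoa and the Rock kinases hold that phosphatase back, so that tension can be kept at a given calcium level. Thin-filament proteins such as calponin and caldesmon restrain the sliding, and dense bodies and dense plaques anchor the filaments inside the cell and at its membrane. Many of these genes are controlled by serum response factor (Srf), which binds the CArG box (CC, then 6 bases that are each A or T, then GG), together with its muscle cofactor myocardin.

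CArG boxes were therefore looked for in the RefSeq promoter windows of GRCm38.p6, which run from 250 bases before to 50 bases after a start site. Windows were listed for 33 of the 37 genes, and Tagln, Myocd, Tgfb1i1 and Rock1 were not searched. An exact box, read on both strands, lay in the window of 6 genes: Fhl1, Cnn2, Vcl, Dmd, Ldb3 and Srf. That is 18.2% of the 33 genes, beside 1.77% of 16317 protein-coding genes searched the same way. With 1 mismatch allowed, 12 of the 33 genes (36.4%) and 22.2% of the protein-coding genes held a match. A match is a run of letters and not a binding site, and no binding was measured here.

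The promoters of 4 of these 6 genes, the most abundant by TPM over all transcripts, follow, with the box in capitals, to let the boxes be seen in their context. Each stretch is the part of the window before the start site that lies outside annotated exons, 5′ to 3′ along the gene's strand.
Fhl1, chrX:56779524-56779682, plus strand: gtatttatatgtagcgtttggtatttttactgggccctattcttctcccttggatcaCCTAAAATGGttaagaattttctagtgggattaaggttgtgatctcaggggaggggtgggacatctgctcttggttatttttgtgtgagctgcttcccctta
Cnn2, chr10:79988350-79988583, plus strand: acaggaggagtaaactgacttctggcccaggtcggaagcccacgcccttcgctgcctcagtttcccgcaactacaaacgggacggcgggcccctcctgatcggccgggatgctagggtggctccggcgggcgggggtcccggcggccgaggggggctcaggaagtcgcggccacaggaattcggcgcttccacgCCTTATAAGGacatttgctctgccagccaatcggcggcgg
Vcl, chr14:20929148-20929397, plus strand: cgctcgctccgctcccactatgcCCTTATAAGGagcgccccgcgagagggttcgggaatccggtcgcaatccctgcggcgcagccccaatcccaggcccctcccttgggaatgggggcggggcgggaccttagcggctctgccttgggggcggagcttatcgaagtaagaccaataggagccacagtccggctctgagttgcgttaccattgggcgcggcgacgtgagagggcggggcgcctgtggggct
Dmd, chrX:82948620-82948869, plus strand: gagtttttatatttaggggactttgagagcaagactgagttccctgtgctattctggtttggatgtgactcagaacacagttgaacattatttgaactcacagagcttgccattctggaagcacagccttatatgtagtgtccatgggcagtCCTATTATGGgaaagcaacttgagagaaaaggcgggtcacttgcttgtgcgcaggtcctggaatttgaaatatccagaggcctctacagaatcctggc
Cnn2 and Vcl held the same letters, CCTTATAAGG, with the first base 56 bases before the start in Cnn2 and 227 before it in Vcl. The box of Fhl1 began 102 bases before the RefSeq start site of its window. The 2 Fhl1 transcripts that begin within 100 bases of that site, both downstream of it, held 85.5% of the gene's level in pup 1 and 87.5% in pup 2. The Dmd box began 98 bases before the RefSeq start site of its window. The 2 transcripts that begin within 100 bases of that site held 36.5% and 33.0% of the Dmd level. Of these, the full-length dystrophin form held 26.9% and 22.6%, and the other is a retained-intron transcript with no protein. On complete coding transcripts alone Dmd, at a mean of 7.56 TPM, would rank below Ldb3, at 15.6 TPM. Srf, the gene of the factor known to bind CArG boxes, had a pair of matches in its own window, CCATATAAGG beginning 82 bases and CCATAAAAGG beginning 62 bases before its start. In Ldb3 a single genomic box, CCATTTATGG, fell in both of its windows, 109 and 35 bases before the respective starts.

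**Figure D1:**
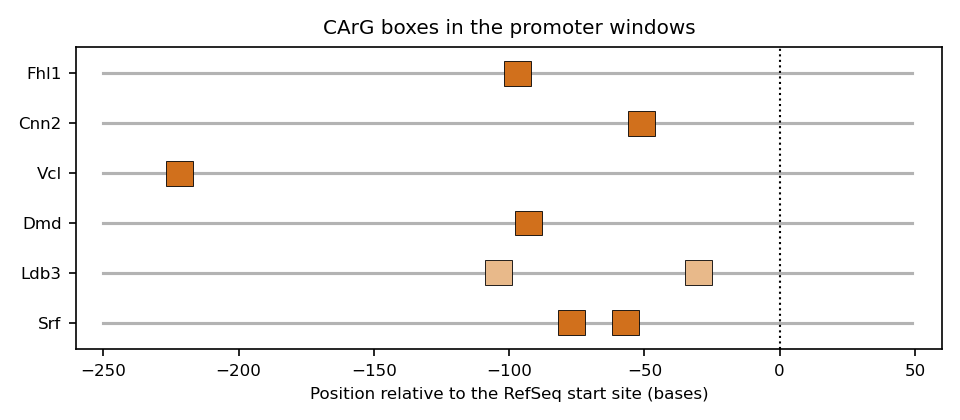
CArG boxes in the promoter windows of the 6 genes that hold one; the horizontal axis is the position in bases relative to the RefSeq start site (dotted line), each bar is 1 box drawn to scale, and the paler bars of Ldb3 are 1 genomic box seen from its 2 start sites. The boxes of Cnn2, Srf, Dmd and Fhl1 began between 56 and 102 bases before the start, and that of Vcl 227 bases before it.

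Levels are given as TPM, a measure that corrects reads for transcript length and library depth, and each mean is given with its SD over the 2 pups. All 37 genes reached 1 TPM in each pup, as did 58.5% of protein-coding genes. At 100 TPM or more in both pups were 27 of the 37, against 5.68% of protein-coding genes, and 8 genes passed 1000 TPM in both pups, as did 107 of 21474 protein-coding genes. Of those 8, Cald1 and Flna were at means of 305 and 504 TPM when only transcripts with a complete coding sequence were counted. The median of the 37 gene means was 317 TPM, beside 14.3 TPM for all protein-coding genes at 1 TPM or more. Together the 37 genes held 3.05% of all TPM in pup 1 and 2.75% in pup 2. The set spanned a wide range, from transgelin at 6886 TPM to Srf at 6.62 TPM.

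**Figure D2:**
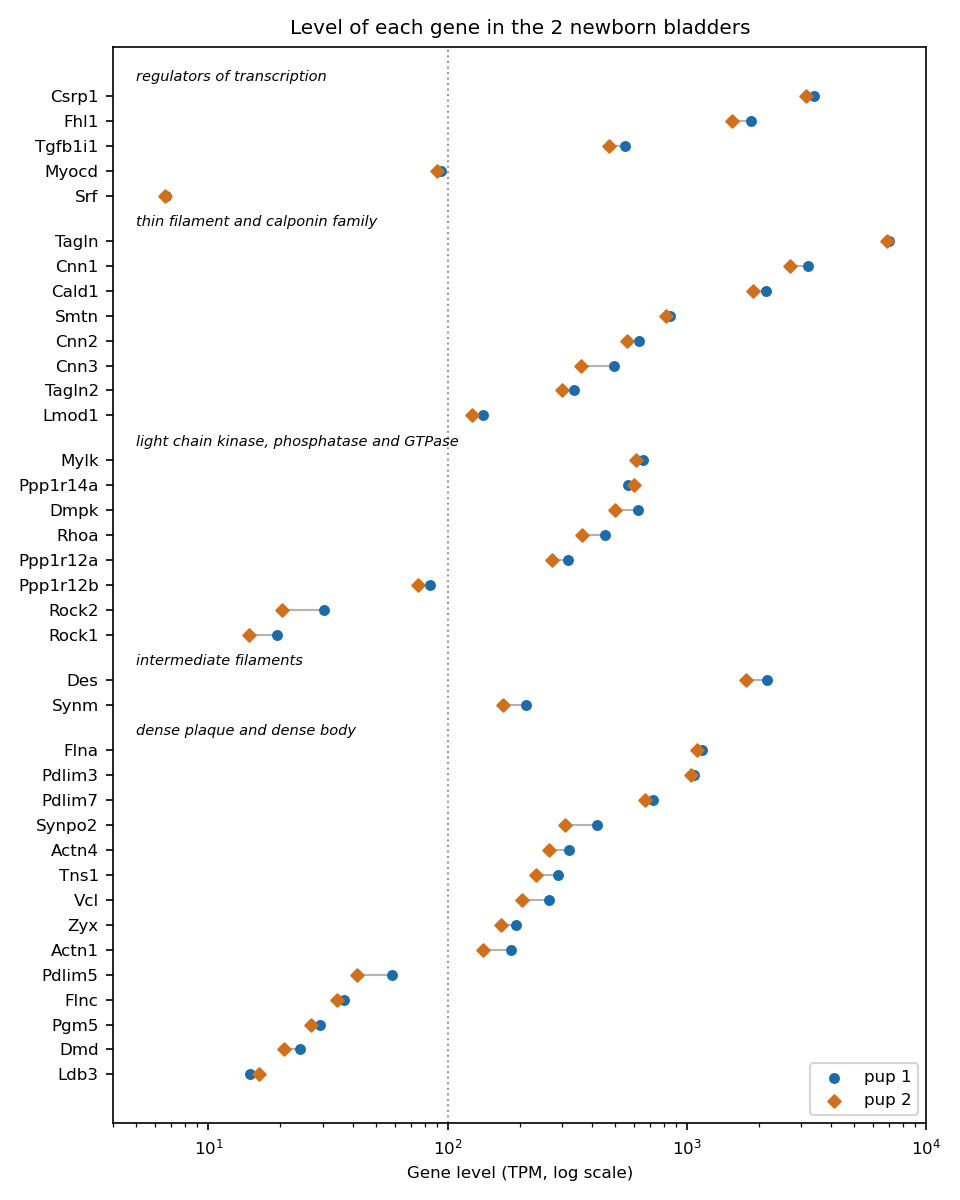
Level of each of the 37 genes in TPM on a log axis, grouped by role, with 1 point per pup joined by a line and a dotted line at 100 TPM. Tagln stands highest at 6948 and 6825 TPM, Srf lowest at 6.63 and 6.61 TPM, and the 2 points of a gene lie close together beside the range between genes.

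The library totals were 43653931 expected counts in pup 1 and 32564563 in pup 2. Of the marker lists, the smooth muscle genes Myh11, Actg2 and Acta2 ranged from 1580.2 to 27629.7 TPM over both pups, and all 6 urothelial markers were above 200 TPM, so the labelled tissue and its markers were both present. Of 5 heart genes 4 reached 1 TPM in both pups, with Tnnt2 at 2529 and 2454 TPM and the next, Nppa, at 5.28 and 6.25 TPM. Of 14 striated muscle genes 6 reached 1 TPM in both pups, with Acta1 highest at 7283 and 6668 TPM. Ckm was at 656 and 599.7 TPM, Tnnt3 at 667 and 429 TPM and Tnnc2 at 396 and 334 TPM. Myog and Pax7 were at 0 in both pups, and Ttn was at 0.08 and 0.04 TPM. Several of the 37 genes (Des, Dmd, Ldb3, Flnc, Synpo2) are also expressed in striated muscle, and the part of such cells in their levels was not tested. Blood and macrophage markers differed between the pups: Hbb-bs, an adult globin, was at 6584 and 16224 TPM, and Lyz2, a macrophage lysozyme, at 216 and 1106 TPM. The other macrophage markers differed less, with Csf1r at 14.9 and 31.9 TPM and Adgre1 at 6.51 and 8.38 TPM.

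Among the regulators of transcription, the LIM-domain protein Csrp1 led with 3381 TPM in pup 1 and 3125 TPM in pup 2 (3253 ± 181, n = 2). Fhl1, a LIM-only protein of muscle, followed at 1852 and 1544 TPM. Tgfb1i1, also known as Hic-5, an adhesion-site protein that can act as a coregulator in the nucleus, was at 553 and 472 TPM. Each of these 3 LIM proteins was above both myocardin and Srf in both pups.

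Myocardin (Myocd), the muscle-restricted cofactor of Srf, was listed at 93.4 and 90.5 TPM, but most of this level rested on a 377-nt transcript with no protein. That transcript took 61.5% and 55.5% of the gene's TPM on only 8.53% and 8.36% of its reads. Transcripts of Myocd with a complete coding sequence held 34.2 and 29.4 TPM, of which 28.2 and 25.0 TPM was the 983-residue form. The 935-residue form was at 5.99 and 4.41 TPM, and a complete 855-residue form was listed at 0 in both pups. Srf itself was at 6.63 and 6.61 TPM, on 793 and 631 reads, the fewest of the 37 genes. The other cofactors of Srf, Mrtfa at 18.9 and 14.8 TPM and Mrtfb at 8.42 and 7.23 TPM, were in the same low range.

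In the thin filament and calponin family all 8 genes were above 100 TPM in both pups. Transgelin (Tagln; chr9:45929619-45936058), an actin-binding protein widely used as a smooth muscle marker, was at 6948 and 6825 TPM (6886 ± 87.4, n = 2) and ranked 14th among 21474 protein-coding genes. Its broadly expressed relative Tagln2 was at 335 and 299 TPM. The ratio of Tagln to Tagln2 was 20.7 in pup 1 and 22.8 in pup 2, so the muscle form exceeded the general form by far more than the spread between the pups.

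The 3 calponins, which bind actin and restrain the myosin ATPase, kept 1 order in both pups. Calponin 1 (Cnn1), the smooth muscle form, was at 3204 and 2687 TPM. Cnn2 was at 627 and 561 TPM and Cnn3 at 495 and 361 TPM. Cnn1 exceeded Cnn2 by 5.11 and 4.79 times, and Cnn2 exceeded Cnn3 by 1.27 and 1.55 times. The last step is the smallest, and the highest Cnn3 value, 495 TPM in pup 1, lay below the lowest Cnn2 value, 561 TPM in pup 2.

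Cnn2 was listed with a pair of complete coding transcripts. The 305-residue form held 82.9% and 83.6% of its TPM and the 266-residue form the other 17.1% and 16.4%. What sets them apart is 1 coding exon of 117 bases, 39 codons in frame, shown here because its use divides the Cnn2 transcripts.
Cnn2, chr10:79993214-79993330, plus strand: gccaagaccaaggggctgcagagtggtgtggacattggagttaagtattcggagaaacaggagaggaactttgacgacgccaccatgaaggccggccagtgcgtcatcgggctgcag
The short form was annotated with only 926 nt, against 2460 nt for the long one, and held 6.75% and 6.41% of the reads.

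Caldesmon (Cald1; chr6:34598500-34775473), which blocks myosin sites on actin, was at 2135 and 1890.4 TPM over all transcripts. Its complete coding transcripts held only 341 and 269 TPM. The rest lay on short models: an incomplete 253-residue transcript of 956 nt held 40.6% and 45.4% of the level, and a retained-intron transcript of 743 nt held 33.2% and 31.4%. By complete coding transcripts Cald1 ranked 18th of the 36 genes with such a value, against 4th of 37 by the gene level.

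High molecular weight caldesmon is the form known from differentiated smooth muscle and the low form is the broadly expressed one. The 768-residue high form was at 78.9 and 46.0 TPM, which was 23.2% and 17.1% of complete coding TPM. The leading low form, of 536 residues, was at 217 and 168 TPM. A further incomplete transcript of 354 residues also carried the coding stretch that the 536-residue form lacks, and with it the transcripts holding this stretch summed to 278 and 198 TPM. The 768-residue model alone was below the leading low form in both pups, whereas this sum was above it. All complete low forms together held 262 and 223 TPM, below this sum in pup 1 and above it in pup 2. The incomplete 253-residue transcript spans the stretch without holding any of it, and was alone at 866 and 859 TPM. With incomplete models on both sides, transcripts without the stretch were thus the higher ones in both pups. How far the short models shift these levels was not tested.

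Smoothelin (Smtn), a marker of contractile smooth muscle, was at 845 and 819.9 TPM (832 ± 17.4, n = 2). The short A form, from an internal start, is known from visceral muscle and the long B form from vascular muscle. The B forms of over 700 residues held 524 and 481 TPM, led by a 923-residue form at 504 and 421 TPM. The shorter form of 436 residues was at 281 and 303 TPM. In these bladders the B forms thus held 65.1% and 61.3% of complete coding Smtn TPM. A 946-residue form took 751 reads in pup 1 and 3567 in pup 2, with a posterior SD of 619 and 486 reads, so its level in pup 1 was not resolved. Leiomodin 1 (Lmod1), which nucleates actin filaments in smooth muscle, was the lowest of the family at 141 and 126 TPM.

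**Figure D3:**
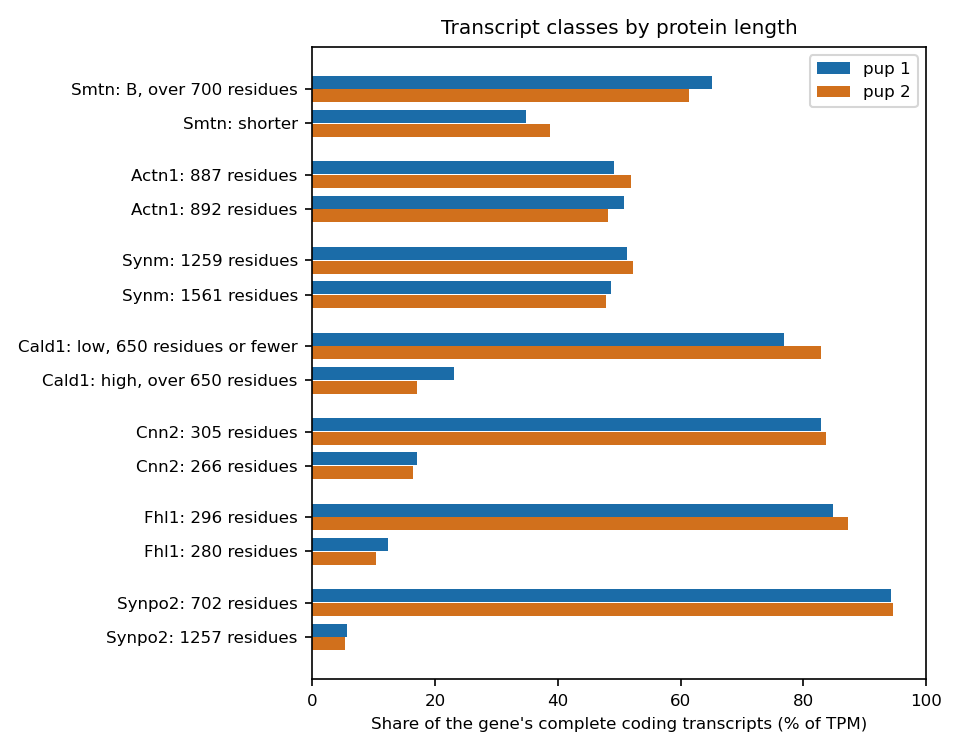
Transcript classes of 7 genes by the length of the encoded protein, as percent of the TPM of the gene's complete coding transcripts, with 1 bar per pup. Smtn B forms take 65.1% and 61.3%, the 2 forms of Actn1 and of Synm lie near equal shares, and the high form of Cald1 takes 23.2% and 17.1%.

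The switch that turns myosin on was represented by myosin light chain kinase (Mylk; chr16:34745210-35002420), at 652 and 609.8 TPM (631 ± 29.6, n = 2). A single 1950-residue transcript held 99.8% and 99.7% of that level. The same locus is known to encode a shorter smooth muscle kinase and the small protein telokin. The deposited tables list only 2 Mylk transcripts, and the 159-residue transcript that GENCODE M21 annotates there is not one of them, so these forms were not separated.

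For the phosphatase that turns myosin off, Ppp1r12a, its myosin-targeting subunit, was at 317 and 272 TPM. The related muscle subunit Ppp1r12b was at 84.0 and 74.7 TPM, and the ratio between them was 3.78 and 3.64, or 1.81 and 1.73 by reads. Within Ppp1r12b the 976-residue form held 68.3% and 67.9% of TPM, and coding forms under 300 residues held 0.06% in pup 1 and were listed at 0 in pup 2. Ppp1r14a, known as CPI-17, which inhibits this phosphatase when phosphorylated, was at 568 and 600.2 TPM (584 ± 23.0, n = 2). Its level rests on 7342 and 6202 reads and a deposited model of 531 nt, against 950 nt in GENCODE M21. How far the shorter model shifts this TPM was not tested. CPI-17 and Ldb3 were the only 2 of the 37 genes whose TPM was higher in pup 2. The catalytic subunit Ppp1cb was at 238 and 209 TPM.

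Of the genes that hold the phosphatase back, Rhoa was at 453 and 365 TPM, while its kinases were much lower. Rock2 was at 30.5 and 20.3 TPM and Rock1 at 19.4 and 14.8 TPM. Rock2 exceeded Rock1 by 1.57 and 1.37 times, but the pup 2 value of Rock2 lay just above the pup 1 value of Rock1, and the SD of Rock2 over the pups (7.17 TPM) was close to the gap between their means (25.4 and 17.1 TPM). Dmpk, the kinase whose gene carries the repeat expansion of myotonic dystrophy, was at 624 and 501 TPM, with 375 and 279 TPM on complete coding transcripts.

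Both intermediate filament genes were above 100 TPM. Desmin (Des), the muscle filament protein, was at 2164 and 1765 TPM (1964 ± 282, n = 2). Synemin (Synm), which co-assembles with desmin, was at 213 and 169.7 TPM, and a 1259-residue and a 1561-residue form held 51.3% and 48.7% of it in pup 1 and 52.2% and 47.8% in pup 2. Vim, the filament gene of mesenchymal cells, was at 648 and 592 TPM, below Des in both pups.

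Of the 14 genes of dense plaques and dense bodies, 9 were above 100 TPM in both pups. Filamin A (Flna), an actin cross-linker, was highest at 1149 and 1096 TPM, and its complete coding transcripts held 538 and 469.98 TPM. A 738-nt transcript of Flna with no protein held 31.6% and 32.9% of its level. The muscle filamin Flnc was at 36.7 and 34.5 TPM, and Flna exceeded it by 31.3 and 31.8 times over all transcripts. By reads, which are not corrected for length, the ratio was 17.6 and 17.3. The leading Flnc transcript, with 87.8% and 86.3% of the gene, has no entry in GENCODE M21, so Flnc has no value for complete coding transcripts.

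The Pdlim proteins and Ldb3, which carry PDZ and LIM domains and sit on alpha-actinin, ranged from a mean of 15.6 TPM for Ldb3 to 1056 TPM for Pdlim3. Pdlim3 was at 1073 and 1039 TPM and Pdlim7 at 724 and 665 TPM. Pdlim5 was at 58.4 and 41.7 TPM, and Ldb3, best known from the striated Z-disc, at 14.9 and 16.3 TPM. No step in this order was crossed by the values of the other pup. Pdlim7 exceeded Pdlim5 by 12.4 and 15.9 times (4.74 and 6.12 by reads), and Pdlim5 exceeded Ldb3 by 3.92 and 2.56 times. The 327-residue form of Ldb3 held 15.8% of the gene in pup 1 and 29.0% in pup 2, on 108 and 172 reads with a posterior SD of 18.1 and 19.8 reads. The relatives Pdlim1 and Pdlim4 were at 175 and 155 TPM and at 101 and 120 TPM.

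Alpha-actinins cross-link actin in dense bodies. Actn4 was at 322 and 264 TPM and Actn1 at 183 and 141 TPM, a ratio of 1.75 and 1.88. The striated relatives were far lower, with Actn2 at 0.75 and 0.53 TPM and Actn3 at 1.77 and 2.20 TPM. Actn1 was listed with 2 complete transcripts that differ in 1 exon near the calcium-binding domain, of which the 81-base one is known as the non-muscle exon and the 66-base one as the smooth muscle exon. Both are shown, since they are what tells the forms apart.
Actn1, 892-residue form, chr12:80170686-80170766, minus strand: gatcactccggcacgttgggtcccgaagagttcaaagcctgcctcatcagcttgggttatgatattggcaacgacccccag
Actn1, 887-residue form, chr12:80170183-80170248, minus strand: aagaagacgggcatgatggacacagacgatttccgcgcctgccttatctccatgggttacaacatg
The 887-residue form held 49.2% and 51.9% of Actn1 TPM, and 40.6% and 43.2% of its reads. The estimate was 6928 reads for this form and 10139 for the other in pup 1, each with a posterior SD of 112 reads. The 2 forms were thus close to equal by TPM, and the 887-residue form was the lower one by reads. The annotated model of the 887-residue form has 2664 nt against 3739 nt for the other.

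Synpo2, or myopodin, which bundles actin, was at 421 and 309.8 TPM over all transcripts and at 269 and 189 TPM on complete coding ones. Its 702-residue form held 254 and 178 TPM, and the longer 1257-residue form 15.2 and 9.99 TPM. Tensin (Tns1), which links integrins to actin, was at 289 and 233 TPM, and its complete coding transcripts held 101 and 89.1 TPM. Vinculin (Vcl), a talin-binding anchor of actin, was at 265 and 204 TPM. The tables list 1 Vcl transcript, of 1066 residues, so the muscle splice form metavinculin was not measured here. Zyxin (Zyx), a tension-sensitive adhesion protein, was at 194 and 167 TPM.

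Pgm5, or aciculin, a partner of dystrophin at the membrane, was at 29.3 and 26.8 TPM. Dystrophin (Dmd; chrX:82948870-85206141), which ties actin to the membrane, was at 24.1 and 20.7 TPM. The 3678-residue full-length form of Dmd was at 6.48 and 4.67 TPM and took 69.1% and 64.9% of the gene's reads. Forms under 700 residues were at 2.43 and 1.54 TPM, and transcripts with no protein, mostly retained introns, took 63.0% and 69.9% of Dmd TPM. Other genes of the dystrophin complex were in a like range: all 10 were between 1 and 100 TPM, with Dag1, the gene of dystroglycan, highest at 90.6 and 70.4 TPM. Of 12 related adhesion plaque genes, 8 were above 100 TPM in both pups, led by Ilk, the integrin-linked kinase, at 968 and 1019 TPM.

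Over the whole set, transcripts with a complete coding sequence in GENCODE M21 held at least 90% of TPM in both pups for 25 of the 37 genes. For 5 genes, Cald1, Flna, Tns1, Myocd and Dmd, they held under 50% in both pups. Counting only those transcripts left 26 of 36 genes at 100 TPM or more and a median of 299.8 TPM. This alternative was chosen after the transcript values had been seen.

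**Figure D4:**
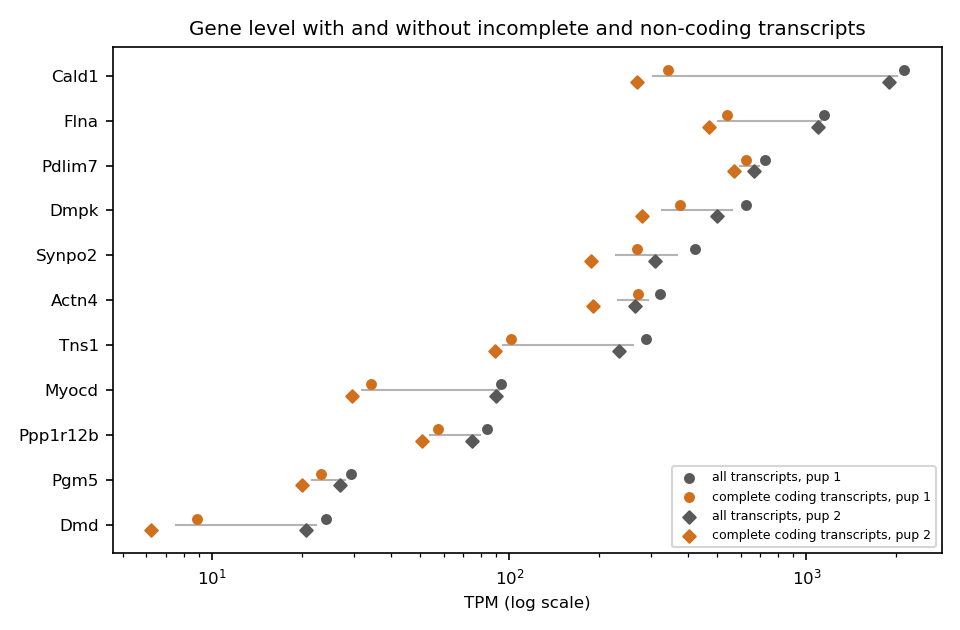
Gene level in TPM on a log axis for the 11 genes with under 90% of TPM on complete coding transcripts in a pup; grey points count all transcripts and orange points only complete coding ones, circles are pup 1 and diamonds pup 2, and a line joins the means. Cald1 moves from 2135 and 1890.4 TPM to 341 and 269 TPM, Myocd from 93.4 and 90.5 TPM to 34.2 and 29.4 TPM.

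Between the pups, expected counts were scaled with TMM factors and pup 2 was divided by pup 1 on the log2 scale, with exact 95% intervals that cover counting error only. In whole tissue, fewer cells of a type and less RNA per cell cannot be told apart. Of the 37 genes, 31 were lower in pup 2, against 54.8% of the 12733 genes whose mean count reached 100. The median of the 37 was -0.14 on the log2 scale, a 1.10-fold lower level, and that of all those genes was -0.02. The interval excluded equal levels for 33 of the 37, 30 lower and 3 higher in pup 2, against 52.3% of all those genes. The 37 genes were read deeper, with a median mean count of 26448 against 978, which narrows their intervals.

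The differences were small. At least 1.2-fold lower in pup 2 were 10 of the 37 genes, against 12.0% of all genes tested, and none was 1.2-fold higher, against 11.4%. No gene of the set was 1.5-fold apart, against 4.92%. With 1 library per pup these values carry no test across animals. By role, the medians were -0.09 for the regulators of transcription, -0.08 for the thin filament and calponin family, -0.19 for the kinase, phosphatase and GTPase genes, -0.23 for the intermediate filaments and -0.15 for the dense plaque and dense body genes.

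The largest difference was that of Rock2, on 7215 and 3845 reads, with a log2 ratio of -0.50 (95% interval -0.56 to -0.45), or 1.42-fold lower in pup 2. Pdlim5 followed on 7063 and 3985 reads at -0.42 (-0.48 to -0.37). Cnn3 was at -0.37, Synpo2 at -0.36, Actn1 at -0.32, Rock1 at -0.31, Dmd at -0.30, Vcl at -0.30, Dmpk at -0.29 and Actn4 at -0.28. These 10 genes make up the 1.2-fold list by TMM-scaled counts. Of them 6 belong to the dense plaque and dense body group, which holds 14 of the 37 genes.

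At the other end, Ppp1r14a was higher in pup 2 on 7342 and 6202 reads, at 0.16 (0.11 to 0.21). Tagln was at 0.05 (0.05 to 0.06) and Pdlim3 at 0.03 (0.01 to 0.05). For Srf, Smtn, Ldb3 and Flnc the interval held equal levels. Tagln, Pdlim3, Smtn and Srf changed direction when TPM values were compared in place of TMM-scaled counts, and Mylk and Flnc when library totals were used, so none of these 6 has a settled direction. Cnn1, for comparison, was at -0.17 (-0.18 to -0.16), an interval that did not overlap that of Tagln.

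**Figure D5:**
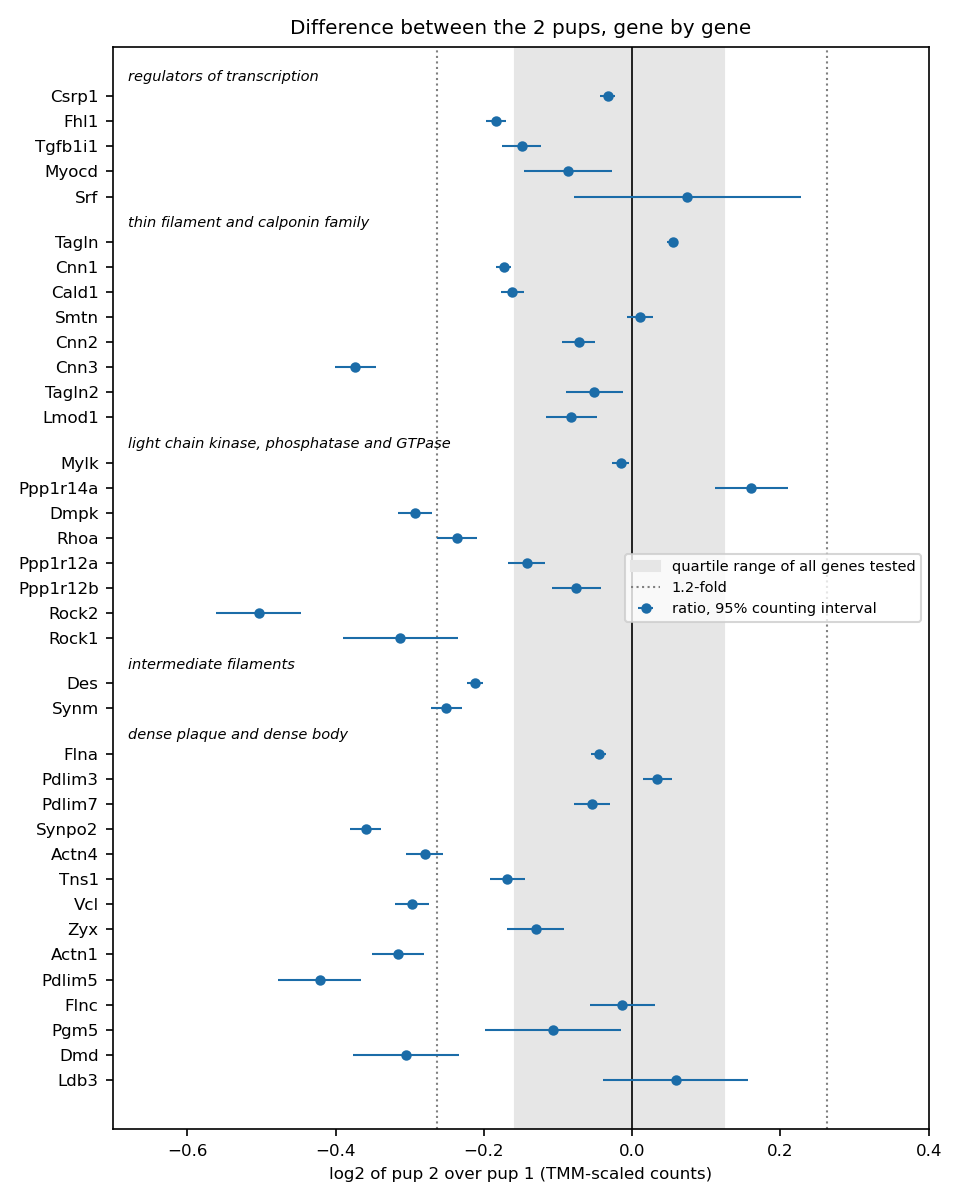
Log2 ratio of pup 2 over pup 1 for the 37 genes, grouped by role, with 95% counting intervals; the grey band spans the quartiles of the 12733 genes tested, -0.16 to 0.12, and dotted lines mark 1.2-fold. Of the 37 points 19 lie inside the band, 10 lie beyond the left dotted line and none beyond the right one.

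Transcript length moved with these ratios. Over protein-coding genes passing the same minimum of 100 counts, the median log2 ratio was 0.04 for lengths under 2000 nt, -0.04 for 2000 to under 4000 nt and -0.09 for 4000 nt or more. In the same bins the genes of the set had medians of -0.04 (8 genes), -0.18 (16 genes) and -0.17 (13 genes). Of the 1.2-fold list, 0, 5 and 5 genes fell in these bins. Among those protein-coding genes 7.99%, 12.6% and 16.7% were at least 1.2-fold lower in the same bins. The summed TPM of the 3 red cell markers was 10436 in pup 1 and 27629.7 in pup 2, and that of the 3 macrophage markers 238 and 1146. Lyz2 alone held 216 and 1106 TPM of the macrophage sum. Summed striated muscle markers were 9032 and 8049 TPM, of which Acta1 alone held 7283 and 6668 TPM (log2 ratio -0.05). Of the 7 that reached the count minimum, 6 were lower in pup 2 and 3 at least 1.2-fold lower, with a median log2 ratio of -0.17, Tnnt3 at -0.54 and Myh8 at -0.66. Of 6 fibroblast markers 5 were lower, with a median of -0.13. In other lists 2 of 6 urothelial markers were lower (median 0.04), as were 1 of 4 heart markers (0.06) and 1 of 2 mesothelial markers (0.07). For endothelium 2 of 4 markers were lower (-0.01), and for pericytes 3 of 5 (-0.02). The part of length, or of blood, macrophage, striated muscle or fibroblast content, in the lower levels of pup 2 was not tested. Summed smooth muscle markers were 46818 and 42892 TPM, with a median log2 ratio of -0.06 over the 3 genes.

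Some genes of the set overlap another gene on the opposite strand, and whether strand was used in counting is not given in the sources used here. Vcl overlaps Ap3m1, whose reads came to 15.2% of those of Vcl. Rhoa overlaps Tcta, at 10.2% of its reads, and Zyx overlaps Epha1, at 7.25%. These are reads already assigned to the other gene, and the reads in the shared bases were not measured, so how far the 3 levels are uncertain is not known. Read division between similar genes added little: the posterior SD of a gene's count was at most 0.26% of that count.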

How the data were processed

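Total RNA longer than 200 nt from the bladders of 2 newborn pups was quantified, with 10 ng of RNA and 1 library per pup, per the labels. The authors deposited expected counts, TPM, FPKM, posterior mean versions of counts and TPM, and for each transcript its percent of the gene's TPM, in the column layout of RSEM. The assembly was mm10 with GENCODE M4, per the text listing deposited with each sample. Which aligner, RSEM release and strand option were used is not given in the sources used here. Expected counts are not normalized, and reads shared by several transcripts were divided by the authors' estimator, so the level of a gene with short transcript models can be raised by few reads.

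Genes and transcripts were matched by identifier to GENCODE M21 on the same assembly. Of 209 transcripts of the 37 genes 208 were matched, 178 of them with the same length. Coding lengths and the completeness of coding sequences come from M21, and promoter windows from RefSeq. TPM is used as deposited. For ratios between pups, expected counts were rounded and scaled over mouse genes with TMM factors from edgeR 4.0.16 in R 4.3.3, a count of 0 would be set to 3, and exact Clopper-Pearson intervals at 95% were taken. PCR copies are not told apart, so intervals cover counting error only. The deposited counts number 43653931 in pup 1 and 32564563 in pup 2. No test across animals was run, since both pups are 1 group. All 37 genes are named by rule, grouped by role. Other genes come from fixed lists of related genes and markers. Some related genes are not reported here. The 37 genes and all lists were chosen with earlier results of these data known. Other settings tried were DESeq2 1.42.0 size factors, total counts, posterior means, other thresholds and complete coding transcripts only. The ratio code was tested on simulated data. Scripts ran in Python 3.11.15 (scipy 1.17.1, numpy 2.4.6, pandas 2.3.3, matplotlib 3.10.9).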

Additional observations from a re-analysis of the deposited data

How the results depend on the processing

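With 2 libraries in 1 group the counts of genes at 1 and 100 TPM and the median level held under every alternative run, within 1.5 times or 1 SD. So did the counts of genes 1.2-fold and 1.5-fold apart, but the members of the 1.2-fold list changed. By TPM, Des (-0.2934), Rhoa (-0.3128), Tns1 (-0.3058) and Synm (-0.3297) were also at least 1.2-fold lower in pup 2, and Dmd (-0.2217) was not. The median log2 ratio of the 37 genes was -0.21 from TPM, also with 1 added before the log, against -0.14 from scaled counts, and kept its direction. By TPM, Tagln (-0.0259), Smtn (-0.0426), Pdlim3 (-0.0467) and Srf (-0.0044) turned lower in pup 2, with 1 added to TPM likewise (-0.0259, -0.0426, -0.0466 and -0.0038). By library totals Mylk (0.0030) and Flnc (0.0054) turned higher. The summed share of the 37 genes was 4.64% by reads and 2.57% by complete coding transcripts.

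By reads, which are not corrected for length, the paralog ratios were 5.34 for Cnn1 over Cnn2, 25.0 for Tagln over Tagln2, 1.99 for Actn4 over Actn1, 17.4 for Flna over Flnc, 1.77 for Ppp1r12a over Ppp1r12b, 1.91 for Rock2 over Rock1, 1.46 for Pdlim3 over Pdlim7 and 5.43 for Pdlim7 over Pdlim5. By complete coding transcripts Actn4 over Actn1 was 1.42, Ppp1r12a over Ppp1r12b 5.45 and Pdlim3 over Pdlim7 1.77. No order reversed.

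Mean shares by reads over all transcripts were 11.1% for high Cald1, 75.1% for Smtn B and 67.0% for Dmd over 3000 residues. They were 48.6% for the 1259-residue Synm, 41.9% for the 887-residue Actn1, 6.58% for the 266-residue Cnn2 and 71.9% for the 702-residue Synpo2. By TPM on protein-coding transcripts they were 4.60% for high Cald1, 63.2% for Smtn B and 74.0% for Dmd. This Cald1 share and that by reads over all transcripts counted the incomplete 354-residue model, which carries the stretch of the high form, as low. The incomplete 253-residue model, at 866 and 859 TPM, was also counted as low. By TPM on complete coding transcripts the shares were 20.1% for high Cald1, 63.2% for Smtn B, 74.0% for Dmd and 94.4% for Synpo2. By reads on complete coding transcripts high Cald1 held 26.2% in pup 1 and 19.5% in pup 2, and Smtn B 77.4% and 74.4%. Dmd over 3000 residues held 90.4% and 91.6% by that measure, and the 702-residue Synpo2 91.8% and 92.2%. With 1 mismatch 12 genes held a CArG box. The cause of these shifts was not tested. Shares by reads are not corrected for length. No paired analysis was possible because there is 1 group. Leaving out a pup gives no ratio between pups.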
